A study of Glycine max with 12 samples.

Results

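The probesets described here were raised by nitrate in soybean nodules while their mean difference between nitrate and control in roots stayed within set limits. They were chosen from the measured values: the nodule difference, nitrate minus control, had to be at least 2 on the log2 scale, every nitrate-treated nodule array had to lie above every control nodule array, and Feature Extraction had to mark the spot as well above background on each nitrate-treated nodule array. The root difference had to lie between -1 and 1, a window that held 89.4% of all probesets. Of 42748 probesets, 214 (0.501%) met the nodule part of this rule and 141 (0.33%) met all of it. The nodule and root differences are therefore given as descriptions, with no test. Of the other 73 probesets that met the nodule part, 62 had a root difference above 1 and 11 had one below -1.

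Soybean plants of the cultivar Nourin No.2, inoculated with Bradyrhizobium diazoefficiens USDA110 and grown in nitrogen-free solution, received 5 mM nitrate for 24 h from 19 days after planting, or stayed in nitrogen-free solution as controls. The groups were nitrate-treated nodules, control nodules, nitrate-treated roots and control roots, with 3 arrays each. Nodules wider than a set diameter came from the upper part of the root system and roots from the lower part, which carried no visible nodules, so the roots were not those next to the nodules. Each array held the pooled RNA of several plants, and all 4 groups shared the inoculation and the nitrogen-free start.

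Root nodules house rhizobia that reduce atmospheric nitrogen to ammonium, which the plant exports as ureides in soybean. The plant pays for this with sucrose from the shoot. Nitrate given to nodulated legumes is known to depress nodule growth and nitrogen fixation, and it also serves as a signal that induces its own uptake and assimilation in roots.

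Signal is given as the Agilent processed signal scaled to a mean of 2500 on each array, and differences are on the log2 scale of that signal. The number of arrays, 3 per group, limits the precision of every value. Between 79.2% and 84.5% of probesets were well above background on an array and none was saturated. The 12 arrays lay on 3 slides. All 3 control nodule arrays and nitrate nodule array 3 shared slide 3, nitrate nodule arrays 1 and 2 lay on slide 2 with control root arrays 2 and 3, and slide 1 held control root array 1 and the 3 nitrate-treated root arrays. Leghemoglobin and uricase probesets were not named in the annotation used here, so the organ labels could not be checked against those markers. In whole organs, more RNA per cell and more cells of a type cannot be told apart.

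The nodule difference of the 141 members had a median of 2.39, or 5.26-fold, and lay between 2.01 and 4.79. It was at least 3 in 27 members and at least 4 in 3. The median over all probesets was -0.05. The root difference of the members had a median of 0.24, with 82 members above 0 and 59 below, against a median of 0.04 over all probesets. The 3 nitrate-treated root arrays all lay above the 3 control root arrays in 14 members (9.93%) and all below them in 8 (5.67%), where 12.5% of all probesets did so in each direction, and the root groups overlapped in the other 119. No nitrate-treated root array was well above background in 12 members, and no control root array in 13. Their root differences rest at least in part on signals near background.

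**Figure D1:**
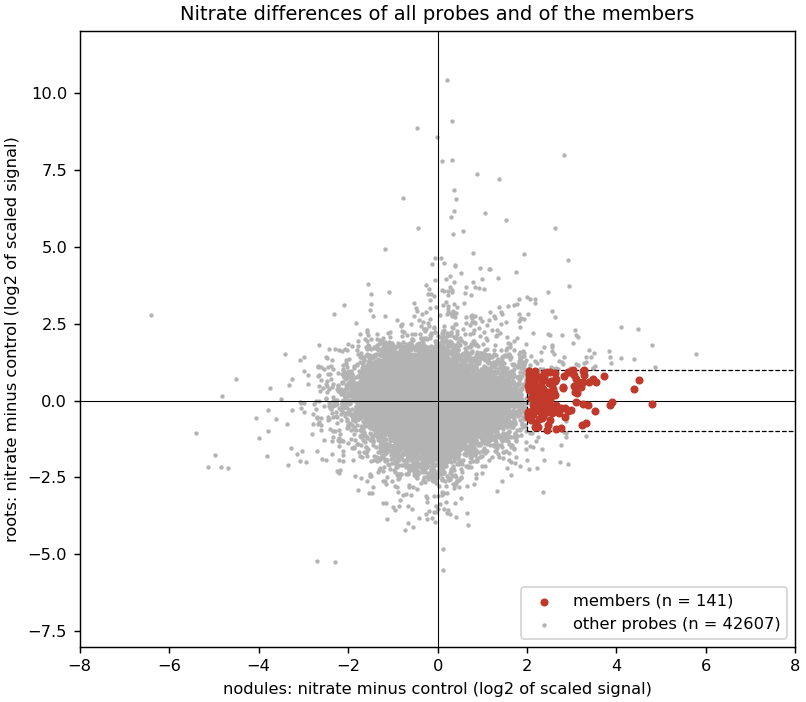
Difference between nitrate and control in nodules (x axis) against that in roots (y axis), both on the log2 scale, for every probeset (grey) and the 141 members (red). The dashed lines are the limits of the rule, 2 for nodules and 1 on either side of 0 for roots, and the members lie between 2.01 and 4.79 on the x axis.

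The limits cut through a continuous spread of values. Just inside the nodule limit were CF808158.1_492 at 2.01 and BE661239.1_468 and BQ741040.1_437, both at 2.02. Just outside it were BE556255.1_479 and CO984672.1_549, both at 1.995, and BU545073.1_519 at 1.992. Just inside the root limit were BQ080827.1_304 and BM094510.1_347, both at 0.99, and AW706898.1_378 at 0.97. Just outside it were BE822876.1_588, GMFL01-01-O18-R_495 and AW760137.1_515, each at 1.01.

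The study's list of nodule-raised probesets gave a description for 46 of the members, and 95 are known here by their accession alone. The list held only probesets that passed the study's own limits on the ratio and on a test. Members that did not pass are without a description here, so the functional counts of members below cover only those on that list. How many of the 95 failed those limits was not counted. Of the 46, 16 were described by a function and 30 by a clone, a cDNA library or a product without a stated function. That list was drawn up on these same arrays, so a described function is no independent evidence of direction, and counts below of other probesets with a description cover only the study's lists of changed probesets, of which the list lowered in nodules was used here in part (742 probesets). By the words of their descriptions, 3 members belonged to proteolysis, 3 to fermentation, one-carbon and redox enzymes, 2 to amino acid metabolism, 2 to photosynthesis and 2 to hormone response, with 1 each for defence, transcription, chaperones and other enzymes. The stem-specific protein TSJT1 was placed under hormone response by its name, which states no hormone. The nodule-raised list held 646 probesets, 11 of them for proteolysis, 13 for fermentation, one-carbon and redox and 13 for amino acid metabolism. It held 80 for photosynthesis, 4 for hormone response, 4 for defence, 32 for transcription, 6 for chaperones and 17 for other enzymes. No member was described as an enzyme of nitrate or ammonium assimilation, of starch and sugar or of lipid metabolism. Nor was any member described as a transporter, a nodulin or a protein of RNA silencing. The nodule-raised list itself held 4, 14, 8, 12, 3 and 4 probesets of these groups in that order. With so few in the list, their absence among the members is a description only. In the lists used, 4 transport, 3 nodulin, 1 nitrate and ammonium assimilation and 1 starch and sugar probesets met the nodule part of the rule. These fell outside the root window, and the 95 members without a description could not be placed.

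The member with the largest nodule difference was annotated as an aspartyl protease, one of the proteases that use a pair of aspartate residues to cut peptide bonds. AW707145.1_264 had signals of 113, 172 and 205 in nitrate-treated nodules, against 7.99, 11.8 and 2.01 in control nodules. In roots it had 2.07, 2.17 and 2.64 after nitrate and 2.41, 2.47 and 2.49 in controls. The nodule difference was 4.79, and the SD over arrays was 0.44 in nitrate-treated nodules and 1.34 in control nodules (n = 3 each). Of the other 9 arrays, only 1 control nodule array showed the spot well above background. With normexp background correction the difference was 2.14, below the 3.61 of GMFL01-21-O21-R_409 and the 3.45 of BU090383.1_311, so that its rank depended on control signals near background. Of 5 other probesets with the same description, 2 had a nodule difference above 0, and GMFL01-13-O10-R_518 had 2.55 in nodules and 2.91 in roots.

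The 2 members annotated as predicted E3 ubiquitin ligases, enzymes that select proteins for attachment of ubiquitin, differed in organ. BQ080827.1_304 had signals of 132, 141 and 191 in nitrate-treated nodules, against 14.7, 17.8 and 14.7 in control nodules. Its root signals were 1921, 1537 and 738 after nitrate and 632, 1388 and 315 in controls, so that the nodules stayed below the roots after nitrate too. CX704110.1_773 had 805, 1070 and 944 in nitrate-treated nodules, against 186, 178 and 316 in control nodules. Its root signals were between 33.3 and 47.2 after nitrate and between 37.2 and 72.1 in controls, all below the nodule signals. The nodule differences were 3.28 and 2.09 in that order. Among 9 further probesets with this description the nodule difference lay between -0.20 and 1.63.

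Both members annotated as proline dehydrogenase, the mitochondrial enzyme that starts the breakdown of proline, had similar differences. BE660911.1_670 had signals of 185, 228 and 261 in nitrate-treated nodules, against 46.9, 46.9 and 34.1 in control nodules. CF809035.1_561 had 1896, 2307 and 2487 in nitrate-treated nodules, against 564, 490 and 408 in control nodules. The nodule differences were 2.40 and 2.20, with SDs between 0.20 and 0.27 in each nodule group. The root differences were -0.26 and -0.25, with the root groups overlapping for both. No other probeset in the lists used here carried this description, and whether both measure the same transcript was not tested.

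The 3 enzymes of fermentation, one-carbon metabolism and redox reactions differed in their root signals. CK769096.1_705, annotated as alcohol dehydrogenase 1, the enzyme that makes ethanol in fermentation, had signals of 94.5, 127 and 157 in nitrate-treated nodules, against 20.1, 14.0 and 11.1 in control nodules. Its root signals spread widely, at 29.7, 68.4 and 10.9 after nitrate and 9.61, 63.5 and 20.4 in controls, with SDs of 1.33 and 1.37 on the log2 scale. GMFL01-21-H10-R_427, annotated as hydroxypyruvate reductase, an enzyme of photorespiration, had 125, 119 and 157 in nitrate-treated nodules, against 22.8, 38.3 and 31.4 in control nodules. All 3 of its nitrate-treated root arrays lay below the control root arrays, with a root difference of -0.40. AW569072.1_390, annotated as formate dehydrogenase, which oxidises formate to carbon dioxide, had 8.73, 10.9 and 15.0 in nitrate-treated nodules and no control nodule array showed it well above background, so that nitrate-treated nodules exceeded control nodules by at least 1.47-fold.

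The lower bounds here and below are the mean of the nitrate-treated nodule arrays over the control nodule arrays when each control array is set to the higher of the probeset's own signal and the dimmest signal well above background on that array. Of the 141 members, 105 were well above background on all 3 control nodule arrays, 15 on 1 or 2 of them and 21 on none. For these 21 the bound lay between 1.47-fold and 14.9-fold, with a median of 3.31-fold, and was at least 4-fold in 5.

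The 2 photosynthesis members were AW596226.1_66, annotated as cab3, a chlorophyll a/b-binding protein of the light-harvesting antenna, and GMFL01-10-H21-R_543, annotated as the photosystem I subunit N. AW596226.1_66 had 140, 141 and 186 in nitrate-treated nodules, against 25.1, 48.9 and 36.9 in control nodules, and 94.5, 119 and 167 in nitrate-treated roots, against 119, 165 and 232 in control roots. The nitrate-treated nodules thus lay within the range of the roots, and the control nodules below it. Its nodule difference of 2.11 was the only one of 11 cab3 probesets to reach the limit. In the 10 others the nitrate-treated nodule arrays also lay above all control nodule arrays, with differences between 1.30 and 1.99, and the root difference was below 0, between -1.49 and -0.24. GMFL01-10-H21-R_543 had 2992, 3128 and 4658 in nitrate-treated nodules, against 788, 1002 and 743 in control nodules, and 8975, 9476 and 8881 in nitrate-treated roots, against 4049, 5766 and 4803 in control roots. Here the root arrays did not overlap either, with a root difference of 0.92 just inside the limit.

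The members grouped under hormone response were BU090383.1_311, annotated as the stem-specific protein TSJT1, and BE555242.1_78, annotated as Aux22. TSJT1 is a name from tobacco and states no hormone, while Aux22 is an Aux/IAA protein that responds early to auxin. BU090383.1_311 had 1025, 1949 and 1718 in nitrate-treated nodules, against 155, 104 and 64.1 in control nodules. Its root signals overlapped, at 2470, 2223 and 1257 after nitrate and 925, 4570 and 1823 in controls. BE555242.1_78 had 110, 106 and 152 in nitrate-treated nodules, against 24.7, 28.0 and 23 in control nodules. Its root signals were 75.5, 87.0 and 91.9 after nitrate and 171, 89.5 and 143 in controls. For both, control nodules were below every root array. Nitrate-treated nodules overlapped nitrate-treated roots for BU090383.1_311 and lay above them for BE555242.1_78.

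The last 4 described members had single roles. BU578629.1_535, annotated as the disease resistance protein KR3, had 19.0, 25.6 and 34.7 in nitrate-treated nodules and was not well above background on any of the other 9 arrays, a nodule difference of at least 3.36-fold. AI930741.1_477, similar to a transcription factor, had 54856, 60932 and 81705 in nitrate-treated nodules, against 22652, 15501 and 9630 in control nodules, and between 2632 and 7073 in the 6 root arrays. Both nodule groups of this probeset lay above all root arrays. GMFL01-13-H23-F_774, annotated as a DnaJ chaperone, a partner of Hsp70 in protein folding, had 13099, 16720.0 and 20438 in nitrate-treated nodules, against 3264, 3146 and 2015 in control nodules. Its root arrays did not overlap either, at 9426, 11350.0 and 9312 after nitrate and 7144, 7993 and 4542 in controls, with a root difference of 0.65. Of 8 other probesets with this description, 3 had a nodule difference above 0, and their median was -0.74. GMFL01-34-F12-R_327, similar to carbonate dehydratase, which interconverts carbon dioxide and bicarbonate, had 38.1, 50.6 and 58.5 in nitrate-treated nodules, against 14.5, 16 and 5.15 in control nodules. It was well above background on 2 of the 3 control nodule arrays. Its root signals overlapped, at 131, 99.9 and 52.5 after nitrate and 58.5, 39.2 and 41.7 in controls. The root difference of 0.95 was just inside the limit.

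**Figure D2:**
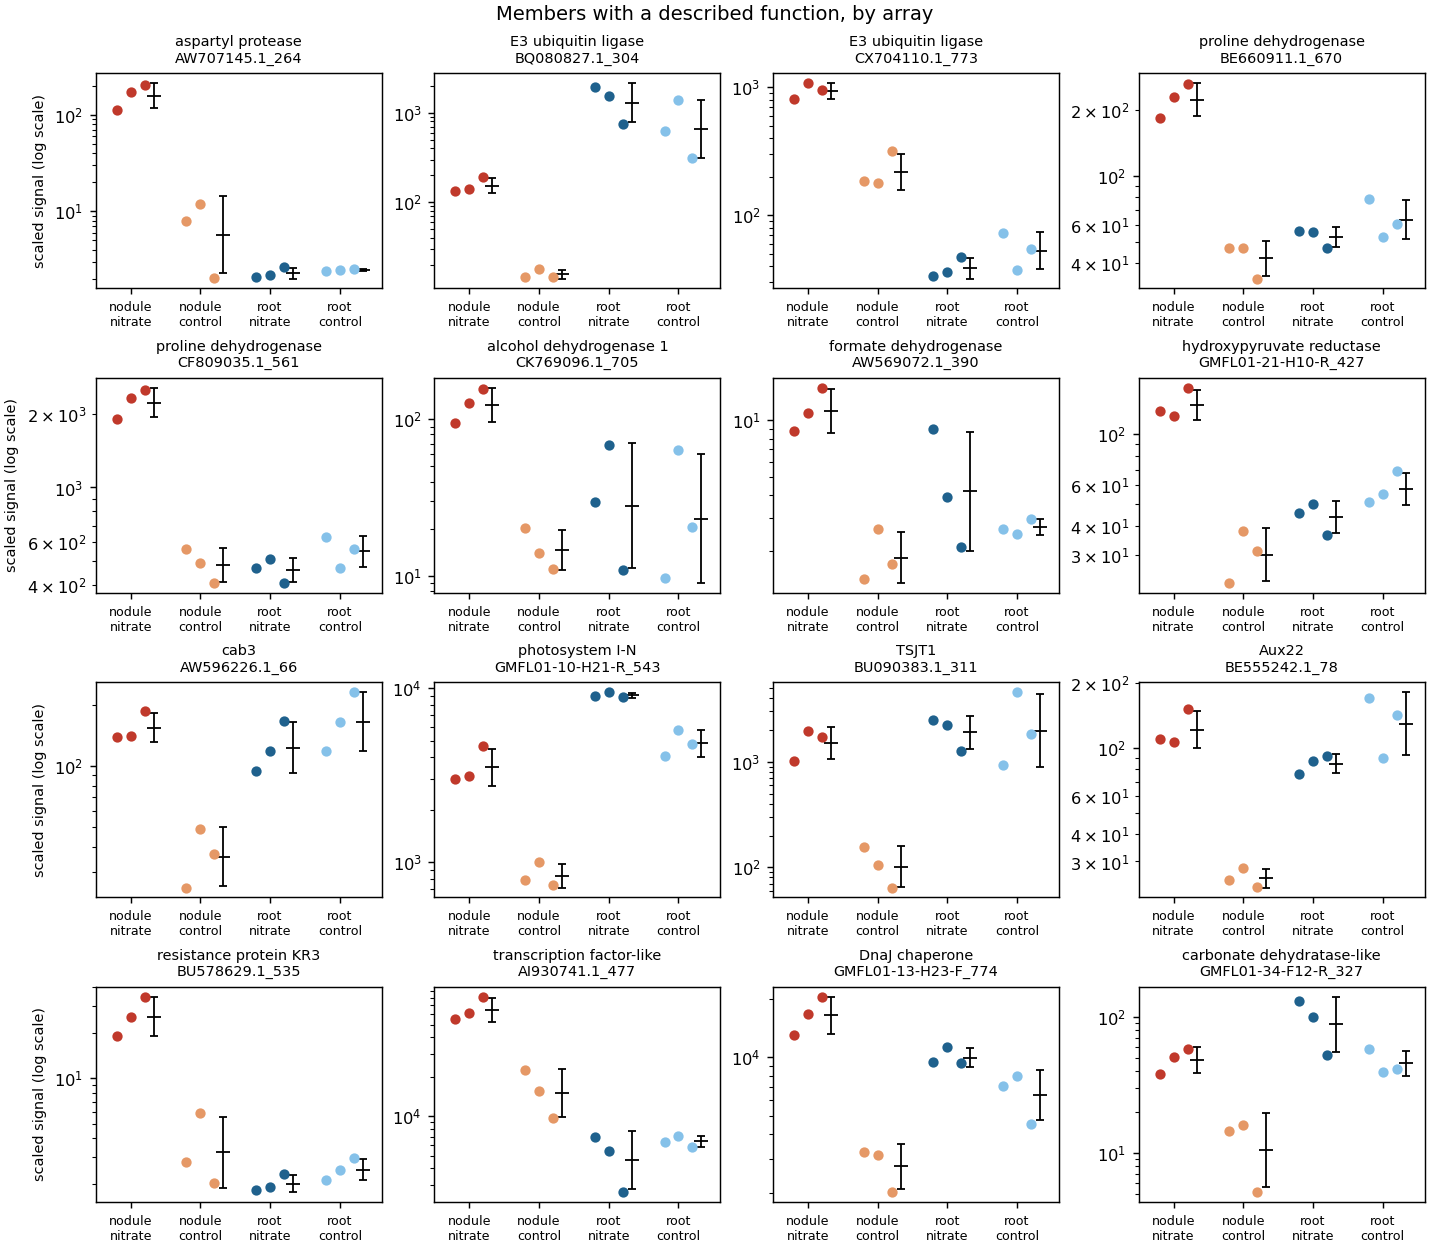
Scaled signal on each array (points, log axis) of the 16 members with a described function, by group, with the mean and SD of the log2 values beside the points (black, n = 3 arrays each). Nitrate-treated nodules lie above control nodules in every panel, as the rule required, while their place relative to the roots differs between panels.

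Of the 10 members with the largest nodule difference, 8 had no described function. AW348413.1_627 had 100, 93.5 and 157 in nitrate-treated nodules, and its spot was not well above background in control nodules, a difference of at least 14.9-fold. GMFL01-41-B11-R_501 had 205, 188 and 491 in nitrate-treated nodules, against 14.4, 12.8 and 11.1 in control nodules. Both of these had root signals that overlapped between nitrate and control. CD395785.1_454 had 38.7, 52.0 and 92.9 in nitrate-treated nodules, was not well above background on any other array, and was at least 7.48-fold higher. GMFL01-21-O21-R_409 had 5528, 8218 and 10998 in nitrate-treated nodules, against 843, 647 and 408 in control nodules. GMFL01-40-H09-R_388 had 4759, 6579 and 9789 in nitrate-treated nodules, against 774, 627 and 408 in control nodules. The root groups overlapped for both. The remaining 3, BG237777.1_207, GMFL01-02-K09-R_389 and AW185246.1_335, had nodule differences of 3.53, 3.47 and 3.39 and were well above background on 0, 1 and 0 control nodule arrays in that order. BG237777.1_207 was thus at least 5.85-fold higher and AW185246.1_335 at least 4.61-fold higher. With normexp background correction the 3 differences were 1.08, 1.20 and 0.97.

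The rule did not use the difference between organs, which was fitted with limma over the 6 control arrays and, apart from these, over the 6 nitrate-treated arrays. A call needed a Benjamini-Hochberg adjusted p below 0.05 over all probesets fitted and more than a 2-fold difference. In neither contrast did a slide hold arrays of both organs, so organ and slide cannot be told apart. Both contrasts share arrays with the rule, which favoured probesets with low signals on the control nodule arrays and high signals on the nitrate-treated nodule arrays, so the counts are descriptions and no p-value is given for a member. In control plants 89 of the 141 members were lower in nodules than in roots and 14 were higher, against 20.4% and 29.9% of the 36149 probesets fitted. A further 22 passed neither way and 16 were too dim to be fitted. Among the 105 members well above background on all control nodule arrays, 69 were lower in nodules and 14 higher. The median control nodule minus control root difference of all 141 members, the 16 not fitted included, was -2.18. It was 0.13 over all probesets and 0.29 over those fitted.

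In nitrate-treated plants 34 members were lower in nodules than in roots and 50 were higher, against 22.2% and 23.6% of the 35657 probesets fitted. The median nodule minus root difference of the members was 0.28, against 0.08 over all probesets fitted. All 141 entered this fit because the rule required detection in nitrate-treated nodules. Among the 123 members well above background on all nitrate-treated root arrays as well, 34 were lower in nodules and 35 higher. Of the 89 members that were lower in control nodules, 34 were lower in nitrate-treated nodules, 51 passed neither way and 4 were higher. All 14 members that were higher in control nodules were also higher in nitrate-treated nodules. All 3 control nodule arrays lay below all 6 root arrays in 91 members and above them in 17, where 25.3% and 33.4% of all probesets did so. The nitrate-treated nodule arrays lay below all 6 root arrays in 31 members and above them in 49, where 23.5% and 30% of all probesets did so.

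**Figure D3:**
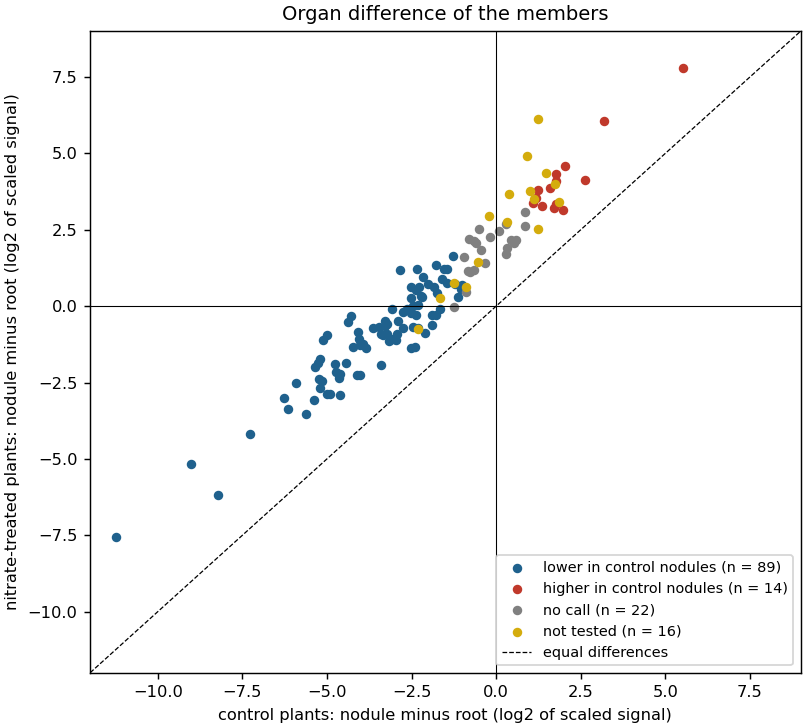
Nodule minus root difference (log2) in control plants (x axis) and in nitrate-treated plants (y axis) for the 141 members, coloured by the limma call in control plants. The points lie above the dashed line of equal differences, which follows from the rule, and the 89 members lower in control nodules lie between -11.2 and -1.01 on the x axis.

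The 3 members with the largest deficit in control nodules were GMFL01-07-D13-R_532, BG237777.1_207 and BU965521.1_403, none of them annotated. GMFL01-07-D13-R_532 had 3.36, 2.04 and 2.41 in control nodules, against 4606, 6637 and 7361 in control roots. Since it was not well above background in control nodules, it was at least 796-fold lower there. In nitrate-treated nodules it had 10.3, 25.5 and 19.1, still far below the 2131, 4141 and 3917 of nitrate-treated roots. BG237777.1_207 was at least 263-fold lower in control nodules than in control roots, and BU965521.1_403 at least 128-fold.

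At the other end were BI425191.1_498, BE660402.1_605 and AW457934.1_266. BI425191.1_498 had 520, 378 and 373 in nitrate-treated nodules, against 84.2, 78.1 and 96.7 in control nodules, and was not well above background on any root array. It was at least 9.40-fold higher in control nodules than in control roots. BE660402.1_605 had a control nodule minus control root difference of 3.19 ± 0.35 (SE from limma, n = 3 each) and AW457934.1_266 one of 2.62 ± 0.32 (SE). Of the described members, TSJT1 had -4.29 ± 0.61 (BU090383.1_311, SE) and both proline dehydrogenase probesets passed neither way in control plants, at -0.58 and -0.19. In nitrate-treated plants the nodule minus root difference was 2.08 ± 0.17 for BE660911.1_670 and 2.26 ± 0.15 for CF809035.1_561 (SE), which the limits of the rule and the control values largely fix.

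All root-abundant probesets, members included, were also looked at, a set chosen after the organ pattern was seen. It held 908 probesets that had a signal at least 16-fold higher in control roots than in control nodules, were well above background on all 6 root arrays and showed a root difference within 1 of 0. Their median nodule difference was 0.11, with 111 above 1 and 78 below -1, and 33 of the 908 were members. Whether root tissue in the nodule samples had a part in the members' values was not tested.

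The members' values differed between the nitrate-treated nodule arrays. The median difference from the control nodule mean was 2.01 on array 1, 2.46 on array 2 and 2.84 on array 3. Array 3 gave the highest of the 3 signals in 109 members (77.3%), against 40.4% of all probesets. The pattern was not particular to the members. Among probesets that met the nodule part of the rule, array 3 was highest in 66.1% of the 62 with a root difference above 1. It was highest in 63.6% of the 11 with a root difference below -1. Array 3 is the one that shared the slide of the control nodules, and within that slide the difference was at least 2 in 137 of the 141 members. With arrays 1 and 2 alone, which lay on another slide than the controls, 101 of the 141 still met the rule. The members were chosen on these same arrays, so both counts are descriptions, and the part of the slide was not tested. On array 1 the difference was at least 2 in 73 members, and the lowest value on any array was 1.17. The median SD of the members was 0.50 in nitrate-treated nodules and 0.35 in control nodules, against 0.17 and 0.10 over all probesets. What set array 3 apart was not tested.

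**Figure D4:**
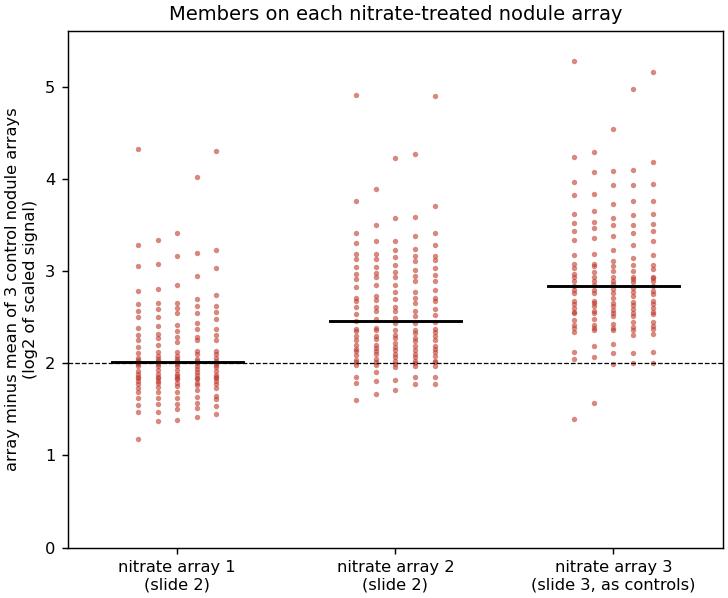
Difference of each nitrate-treated nodule array from the mean of the 3 control nodule arrays (log2) for the 141 members, with the median as a black line and the limit of 2 dashed. The medians are 2.01, 2.46 and 2.84 for arrays 1, 2 and 3, and array 3 shared its slide with the control nodule arrays.

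Values of the most similar sets are given side by side. The 62 probesets with a root difference above 1 had a median nodule difference of 2.83 and a median root difference of 1.42. In control plants 29 of these 62 were lower in nodules than in roots and 15 were higher, and in nitrate-treated plants 14 were lower and 17 higher. Of the 11 probesets with a root difference below -1, 6 were lower in nodules and 0 higher in control plants. In nitrate-treated plants 1 of these 11 was lower in nodules and 8 were higher. The 131 probesets lowered by nitrate in nodules only, picked by the same limits with the sign turned, had a median nodule difference of -2.28. In control plants 30 of these were lower in nodules than in roots and 52 were higher, and in nitrate-treated plants 77 were lower and 9 higher. The median difference of these 131 from the control nodule mean was -1.93, -1.95 and -3.05 on nitrate nodule arrays 1, 2 and 3. Array 3 thus lay furthest from the controls in this set too. The sets use the same control arrays, and the differences between them were not tested.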

How the data were processed

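Total RNA of nodules and roots was labelled with Cy3 and hybridised to 12 one-colour Agilent arrays. The authors scanned these with Agilent Feature Extraction (9.5.1 in the submitters' processing notes, 10.5.1.1 per the file headers), and the deposited intensity is its processed signal, already corrected for background. The deposited series table held the same values, equal on 512976 of 512976 spots.

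Each array was scaled to a mean of 2500 over 42748 non-control probesets, as in the study's methods, and log2 values were computed here from the deposited intensities. Group means, SDs and the stated rule gave the members. Members and functional lists were chosen with earlier results of these data known. The organ contrasts were fitted with limma 3.58.1 (lmFit, eBayes) in R 4.3.3 over probesets that Feature Extraction marked as well above background throughout 1 or both groups, with Benjamini-Hochberg adjustment. The script was first tested on simulated data. Replicate numbers came from the sample titles, although 1 source name of a control root sample carries another number. The sources call the replicates biological.

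Named members were those with a described function, the 10 with the largest nodule difference, the 3 on either side of each limit, the 3 at each end of the control organ difference, and those sharing a description. Descriptions came from the study's lists, of which only the text was used; their ratios and p-values were not. Every accession occurred on 1 probeset, and 0 of them matched the gene table at hand, so neither positions nor sequences are given. Alternatives were another scaling, quantile normalization, normexp background correction (offset 50), other limits, slides and single arrays left out, a replicate block and the methods' unpaired test.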

Additional observations from a re-analysis of the deposited data

Results flagged for a closer look

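In 8 members every nitrate-treated nodule array lay above all control nodule arrays while every nitrate-treated root array lay below all control root arrays, a difference in direction between the organs. The rule required the nodule direction of every member, and the root direction held for 5.67% of the members, against 12.5% of all probesets, so the count is a description. The difference between the organs' responses was not tested. The 8, named after their values were seen apart from GMFL01-21-H10-R_427 and GMFL01-07-D13-R_532, were CX703928.1_836, BE555202.1_300, GMFL01-07-D13-R_532, AW349670.1_477, BG406392.1_232, GMFL01-42-A08-R_365, CF807342.1_488 and GMFL01-21-H10-R_427. Their root differences lay between -0.96 and -0.40, and their nodule differences between 2.02 and 2.75. Only GMFL01-21-H10-R_427 had a described function, as hydroxypyruvate reductase.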

How the results depend on the processing

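The number of members, 141, fell to 77 with normexp background correction. That setting also adds an offset of 50 to every signal, which by itself shrinks the log2 differences of dim probesets. The 78 members lost had a median control nodule signal of 15.1, against 255 for the 63 kept, and all 141 kept a nodule difference above 0. Other limits gave 27 (nodule difference of at least 3), 866 (at least 1) and 78 probesets (root difference within 0.5). The nodule arrays of slide 3 alone, with 1 nitrate-treated array, gave 323. Leaving out each of the 12 arrays gave between 114 and 189, and 75th percentile scaling, quantile normalization, the series table and the other settings between 105 and 181. Of the counts by organ, those higher in control nodules numbered 7 with normexp, against 14. The others stayed within 1.5 times: members lower in control nodules numbered 69 to 93. With slide as a random block, members lower in control nodules numbered 73, but that block cannot separate slide from organ. Leaving out 1 array gave 83 to 92 for these, 13 to 16 for those higher, 29 to 47 for members lower in nitrate-treated nodules and 42 to 51 for those higher. The median nodule difference lay between 1.97 (normexp) and 2.84, and between 2.23 and 2.62 with 1 array left out. Of 324 values for 36 named members, none changed sign and 9 were below 1, all with normexp. Those of members with a described function were 0.67 for KR3, 0.47 for formate dehydrogenase and 0.95 for the carbonate dehydratase-like member. With 1 nodule array left out the sign could not change, because the rule required nodule arrays without overlap. Nodules and roots were separated from the same plants, but whether arrays of equal number share plants cannot be told from the values. The correlation of their deviations lay between -0.26 and 0.14. With a replicate block the control counts stayed at 89 and 14. Low signal limits 36 members, which were not well above background on every control nodule array.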

Other observations

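Of the 141 members, 100 were well above background on all 12 arrays and 5 on the 3 nitrate-treated nodule arrays alone. Besides KR3 (BU578629.1_535) and CD395785.1_454 these were BU544974.1_567, BE807922.1_393 and BI498681.1_354, named here after their values were seen.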
